A study of Homo sapiens with 12 samples.

Results

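The 30 genes described here act in mitosis and cell division, and they were taken as a named list of the proliferation machinery. All 30 had a named row on the array, 1 row each, out of 17687 named genes. They were followed in LNCaPabl-Abi and in LNCaPabl-Enza, a pair of epithelial prostate cancer lines whose names derive from the established human line LNCaP. What Abi and Enza stand for is not spelled out in the labels, and each line is 1 line only. Flasks of either line were given DMSO, the solvent, or 100 nM of the synthetic glucocorticoid dexamethasone for 24 h, and the growth notes name medium with fetal calf serum. The 4 groups are LNCaPabl-Abi with DMSO (Abi_Ctrl), LNCaPabl-Abi with dexamethasone (Abi_Dex), LNCaPabl-Enza with DMSO (Enza_Ctrl) and LNCaPabl-Enza with dexamethasone (Enza_Dex). Each group held 3 single-colour Affymetrix arrays. Whether replicates were separate cultures is not stated, so a p-value here reflects only the spread among these arrays, part of which may be technical. Levels are the deposited log2 values, on which a difference of 1 is read as a doubling, so folds hold on the deposited scale only.

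Mitosis is driven by cyclin-dependent kinase 1 bound to A- and B-type cyclins, and by the Polo-like and Aurora kinases. Kinetochores attach chromosomes to spindle microtubules, and the spindle checkpoint holds back the anaphase-promoting complex until attachment is complete. Most of these genes are transcribed in G2 and M phase, so in growing cancer cells their RNA levels follow the share of dividing cells. Their promoters often hold a CHR element (cell cycle genes homology region), which is bound by the MuvB complex together with B-MYB and FOXM1 in dividing cells or with pocket proteins in resting cells. CCAAT boxes bound by NF-Y are also common there. In bulk RNA, fewer dividing cells and less RNA per cell cannot be told apart.

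The promoters are shown as background on the list, and a link between them and the levels was not tested. RefSeq promoter windows (GRCh38.p14) were found for 24 of the 30 members, and the 100 bases before each annotated start were searched on both strands for the letters of a CHR core, which are TTTGAA or else TTTAAA. The CCAAT box was searched in the same way. The 100-base length was set after looking at the matches, so the shares are a description and not a test. A CHR core was found in 17 of the 24 (70.8%), against 8.70% of the 14250 array genes with a window and 10.1% of all 27305 RefSeq genes with one. CCAAT was found in 18 (75.0%), against 25.3% and 21.6%. Both were found in 13 (54.2%), against 1.92% and 1.98%. Among other mitotic genes a CHR core was found in 30.3% and CCAAT in 62.1%, and among DNA replication genes in 11.4% and 48.6%. The 6 windows shown come from the 6 roles that had a match, 1 for each role. Capitals mark the CHR core and the CCAAT box in either orientation, and each window ends at the base before the start.
CCNB1, chr5:69167050-69167149, plus strand: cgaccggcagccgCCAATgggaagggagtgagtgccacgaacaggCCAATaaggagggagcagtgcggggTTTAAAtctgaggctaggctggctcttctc
BUB1B, chr15:40160969-40161068, plus strand: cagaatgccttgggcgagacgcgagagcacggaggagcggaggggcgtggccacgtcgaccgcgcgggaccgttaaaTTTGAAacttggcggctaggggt
KIF11, chr10:92593030-92593129, plus strand: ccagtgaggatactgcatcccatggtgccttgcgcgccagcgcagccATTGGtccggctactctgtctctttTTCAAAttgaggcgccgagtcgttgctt
ANLN, chr7:36389762-36389861, plus strand: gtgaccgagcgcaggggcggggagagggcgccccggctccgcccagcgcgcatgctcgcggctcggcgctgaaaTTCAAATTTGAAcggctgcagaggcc
CDC20, chr1:43358881-43358980, plus strand: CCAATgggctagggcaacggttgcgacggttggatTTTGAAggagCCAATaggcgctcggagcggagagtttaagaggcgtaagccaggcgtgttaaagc
MKI67, chr10:128126424-128126523, minus strand: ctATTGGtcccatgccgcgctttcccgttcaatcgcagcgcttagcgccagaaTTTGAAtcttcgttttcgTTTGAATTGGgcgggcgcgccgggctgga
The match nearest to the start began 20 to 30 bases before it in CCNB1, BUB1B, KIF11, ANLN and MKI67, and 65 bases before it in CDC20. In MKI67 this match overlaps a CCAAT box on the opposite strand. NDC80 and AURKB held neither motif in their windows. TOP2A held a CCAAT box but neither TTTGAA nor TTTAAA. Other forms of the CHR element were not searched, so a window without a match may still hold one. A match is a run of letters, and no binding was measured in these samples.

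One array, Enza_Ctrl replicate 2, was unlike the rest. Its correlation with the other 11 over all rows had a median Pearson r of 0.873, against 0.987 to 0.991 for each other array, and its 4 poly-A spike-in controls averaged 3.46 against 7.07 to 8.10. The members averaged 10.97 on it, against 11.52 to 12.58 on the other arrays. It was lower than both other Enza_Ctrl arrays for 26 members, as for 48.7% of all genes, and by a median of -1.44 from their mean. BUB1B and AURKA were higher on it than on both. Counts and medians of the members in each comparison are therefore given with 12 arrays and without that array. An SE or adjusted p given once is from the fit without it, unless another fit is named. Of the luminal and LNCaP markers, 9 of 11 had a named row. KRT8 (13.64 to 14.63 over the 11 arrays), EPCAM (13.53 to 14.24) and FOXA1 (14.30 to 14.83) were high. KLK3 (6.63 to 9.88) and KLK2 (3.93 to 6.87), which encode secreted prostate kallikreins, were lower. Of the 25 measured basal, fibroblast, immune, endothelial and neuroendocrine markers, the highest values over the 11 arrays were 8.63 for COL1A2 and 7.70 for CD68. The neuroendocrine marker NCAM1 differed between replicates, at 7.15, 6.59 and 3.87 in Abi_Ctrl and at 6.59, 6.42 and 3.75 in Abi_Dex. Replicate 3 was the low one in both groups. On Enza_Ctrl replicate 2, CDH5, an endothelial gene, was at 9.25 and CD68, a macrophage gene, at 9.15.

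In LNCaPabl-Abi, every member was lower on average with dexamethasone than with DMSO, by a median of -0.50 on the log2 scale, while the median of all genes was 0.00. No single member passed the test. The differences ran from -0.07 (PLK1) to -0.85 (NDC80), which is 1.05-fold to 1.80-fold lower. Of the 30, 21 had all 3 Abi_Dex arrays below all 3 Abi_Ctrl arrays, against 6.01% of all genes, and 0 had the reverse order (6.26% of all genes).

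**Figure D1:**
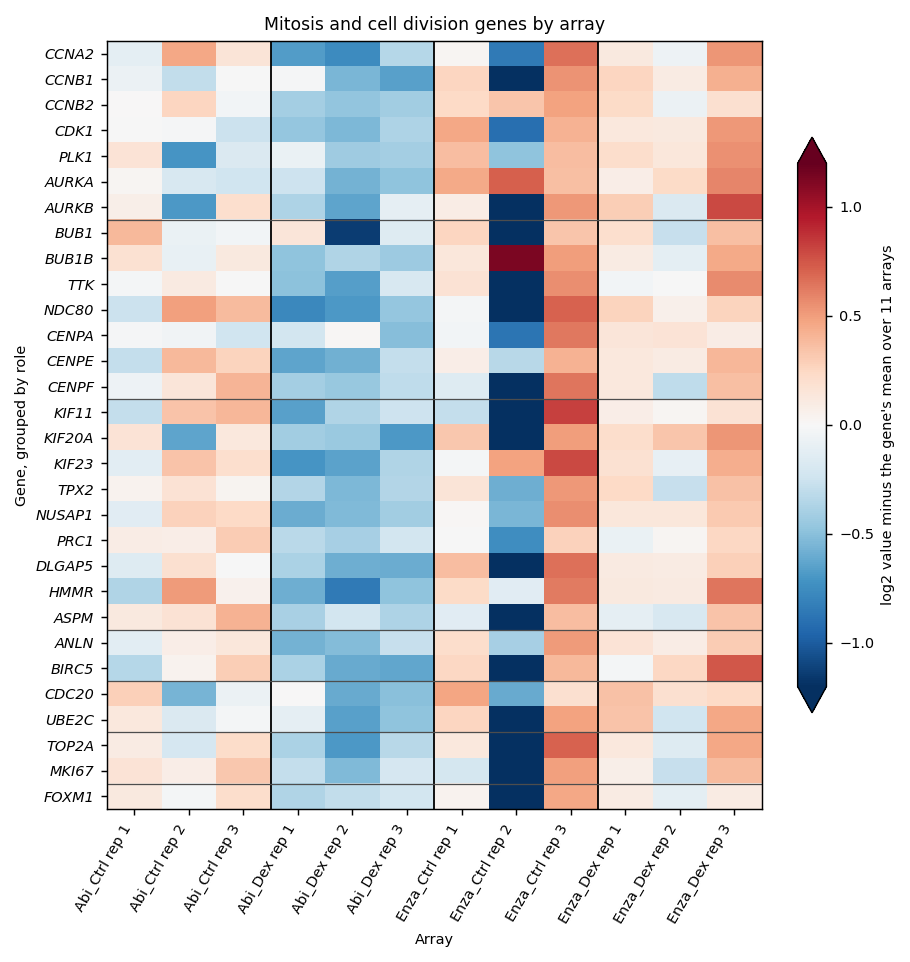
Log2 value of each of the 30 members (rows, grouped by role) on each of the 12 arrays (columns, by group), minus the gene's mean over the 11 arrays without Enza_Ctrl replicate 2. Colours saturate at 1.2 in either direction. The Abi_Dex columns are blue for most members, Enza_Ctrl replicate 3 and Enza_Dex replicate 3 are the reddest, and Enza_Ctrl replicate 2 departs from the other Enza_Ctrl arrays.

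Among the kinetochore and checkpoint genes, NDC80, whose protein anchors microtubules at the kinetochore, was at 11.12, 11.87 and 11.76 in Abi_Ctrl and at 10.61, 10.69 and 10.92 in Abi_Dex. The groups did not overlap, and the difference was -0.85 ± 0.23 (SE) without Enza_Ctrl replicate 2, with an adjusted p of 0.381 by limma. It was the smallest adjusted p of the 30 in that fit. The SEs below for LNCaPabl-Abi are from the same fit, where the members' median SE was 0.21. With 12 arrays their median SE was 0.37, and the limma adjusted p was 0.99998 for each member. CENPE, the kinetochore motor that brings chromosomes to the spindle equator, was at 11.49, 12.16 and 12.04 with DMSO and at 11.14, 11.20 and 11.49 with dexamethasone. The highest treated and lowest control array of CENPE nearly met, and its difference was -0.62 ± 0.21 (SE). The checkpoint kinases TTK (-0.47 ± 0.21) and BUB1B (-0.50 ± 0.19) and the kinetochore protein CENPF (-0.55 ± 0.23) also had groups that did not overlap. BUB1, a further checkpoint kinase, overlapped at -0.48 ± 0.28, with controls at 12.56, 12.10 and 12.14. Abi_Dex replicates 2 and 3, at 11.03 and 12.02, lay below the controls, and replicate 1, at 12.32, lay among them. CENPA, the centromeric histone, was at -0.14 ± 0.20 with overlapping groups.

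Among the cyclins and kinases the differences were less even, with a median of -0.29 over the 7. CCNA2, the cyclin of S and G2 phase, was at 13.00, 13.59 and 13.28 in Abi_Ctrl and at 12.45, 12.37 and 12.78 in Abi_Dex, a difference of -0.76 ± 0.23 (SE). Its treated arrays were all below its controls. CCNB1, the cyclin of mitotic entry, was at 12.51, 12.29 and 12.58 against 12.57, 12.03 and 11.93. Its groups overlapped because Abi_Dex replicate 1 was at the control level, and the difference was -0.29 ± 0.20 (SE). CCNB2 (-0.51 ± 0.17), CDK1 (-0.36 ± 0.17) and AURKA, the centrosomal kinase of spindle assembly (-0.29 ± 0.18), did not overlap between groups. The kinase PLK1 was at 15.18, 14.31 and 14.85 with DMSO and at 14.94, 14.59 and 14.61 with dexamethasone. Its control replicate 2 lay below every treated array, and without Abi_Ctrl replicate 1 its difference changed sign, from -0.07 to 0.13. AURKB, the kinase of the chromosomal passenger complex, was at -0.24 ± 0.28 with overlapping groups.

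The 9 spindle motor and microtubule genes lay between -0.41 and -0.71 with a median of -0.56. NUSAP1, which bundles microtubules near chromosomes, was at 13.54, 13.96 and 13.92 in Abi_Ctrl and at 13.09, 13.15 and 13.27 in Abi_Dex. The difference was -0.64 ± 0.19 (SE), and the groups were clearly apart. DLGAP5, a spindle fibre protein, was at 12.42, 12.76 and 12.57 against 12.19, 11.98 and 11.97, a difference of -0.54 ± 0.17 (SE). Both had no overlap, as did KIF23, the motor of the central spindle (-0.71 ± 0.23), HMMR (-0.71 ± 0.24), ASPM (-0.56 ± 0.20), TPX2, an activator of AURKA (-0.50 ± 0.19), and PRC1, which bundles antiparallel microtubules (-0.47 ± 0.17). KIF11, the motor that pushes spindle poles apart, and KIF20A, a motor of cytokinesis, overlapped at -0.57 ± 0.26 and -0.41 ± 0.22.

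Of the cytokinesis and passenger genes, ANLN, the cleavage furrow scaffold, was at -0.48 ± 0.17 and BIRC5 (survivin) at -0.53 ± 0.22, with no overlap for either. CDC20, the activator of the anaphase-promoting complex, was at -0.25 ± 0.23, and UBE2C, its ubiquitin-conjugating enzyme, at -0.39 ± 0.21, with overlap for both. MKI67, the Ki-67 protein that coats mitotic chromosomes, was at 12.63, 12.55 and 12.79 with DMSO and at 12.18, 11.93 and 12.26 with dexamethasone, a difference of -0.53 ± 0.22 (SE). TOP2A, which untangles sister DNA, was at 12.85, 12.54 and 12.96 against 12.37, 12.05 and 12.41, a difference of -0.51 ± 0.22. FOXM1, the transcription factor that drives many of these genes, was at 12.59, 12.46 and 12.68 against 12.11, 12.18 and 12.25, a difference of -0.40 ± 0.17. In these 3 genes every treated array lay below every control array.

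By limma, with adjustment across the whole array by Benjamini-Hochberg, 0 of the 30 were called at an adjusted p under 0.05. Of all genes, 0.0283% were called with 12 arrays and 0.141% without Enza_Ctrl replicate 2, each of them higher with dexamethasone. Of the members, 5 had an unadjusted p under 0.05 with 12 arrays (1.36% of all genes did) and 20 without Enza_Ctrl replicate 2 (7.09% of all genes). The 9 luminal and LNCaP markers averaged 11.25 to 11.65 in Abi_Ctrl and 12.15 to 12.45 in Abi_Dex. Of the 9, 8 were higher on average with dexamethasone. TMPRSS2 (2.19), KLK2 (1.76) and KLK3 (1.76) differed most, FOXA1 was at 0.06 and EPCAM at -0.09. Their part in the result was not tested.

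In LNCaPabl-Enza, the direction of the members depended on Enza_Ctrl replicate 2. With 12 arrays, 26 of 30 had a positive difference with dexamethasone (54% of all genes did), with a median of 0.30. After quantile normalization anew on the same 12 arrays, 20 were positive and the median was 0.08. Without that array 28 of 30 had a negative one (49% of all genes did), with a median of -0.16, between -0.35 (DLGAP5) and 0.00 (AURKB and BIRC5). The 13265 brighter genes, left after a filter on dim ones, had a median difference of 0.22 with 12 arrays and 0.01 without that array. By limma, 0 members were called with either set, as were 0 of all genes (0%), and 0 members had an unadjusted p under 0.05 with either set (3.96% of all genes with 12 arrays and 3% without that array).

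DLGAP5 was at 12.94, 10.80 and 13.22 in Enza_Ctrl, replicate 2 being the low value, and at 12.67, 12.67 and 12.86 in Enza_Dex. Its difference was 0.41 ± 0.49 (SE) with 12 arrays and -0.35 ± 0.19 without the array (limma adjusted p = 1.00). CCNB2 was at 11.98, 12.07 and 12.22 against 11.97, 11.67 and 11.93, and here Enza_Ctrl replicate 2 lay between its fellows. Its groups did not overlap, and its difference was -0.23 ± 0.19 with and -0.24 ± 0.19 without that array. DLGAP5 and CCNB2 were the only members without overlap after the array was left out, 2 of 30 lower against 7.93% of all genes. With 12 arrays it was CCNB2 alone, 1 of 30 against 4.77%.

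FOXM1 was at 12.52, 10.47 and 12.94 in Enza_Ctrl and at 12.57, 12.36 and 12.57 in Enza_Dex, with a difference of 0.52 ± 0.49 (SE) with 12 arrays and -0.23 ± 0.19 without Enza_Ctrl replicate 2. TOP2A was at 12.87, 10.92 and 13.45 against 12.87, 12.59 and 13.21 (0.47 ± 0.51 and -0.28 ± 0.24). MKI67 was at 12.25, 11.07 and 12.95 against 12.53, 12.18 and 12.85 (0.43 ± 0.39 and -0.08 ± 0.25). CCNB1 was at 12.84, 9.46 and 13.12 against 12.84, 12.68 and 13.01 (1.04 ± 0.74 and -0.14 ± 0.22). In each of the 4, the treated arrays lay within the range of the controls or overlapped it.

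**Figure D2:**
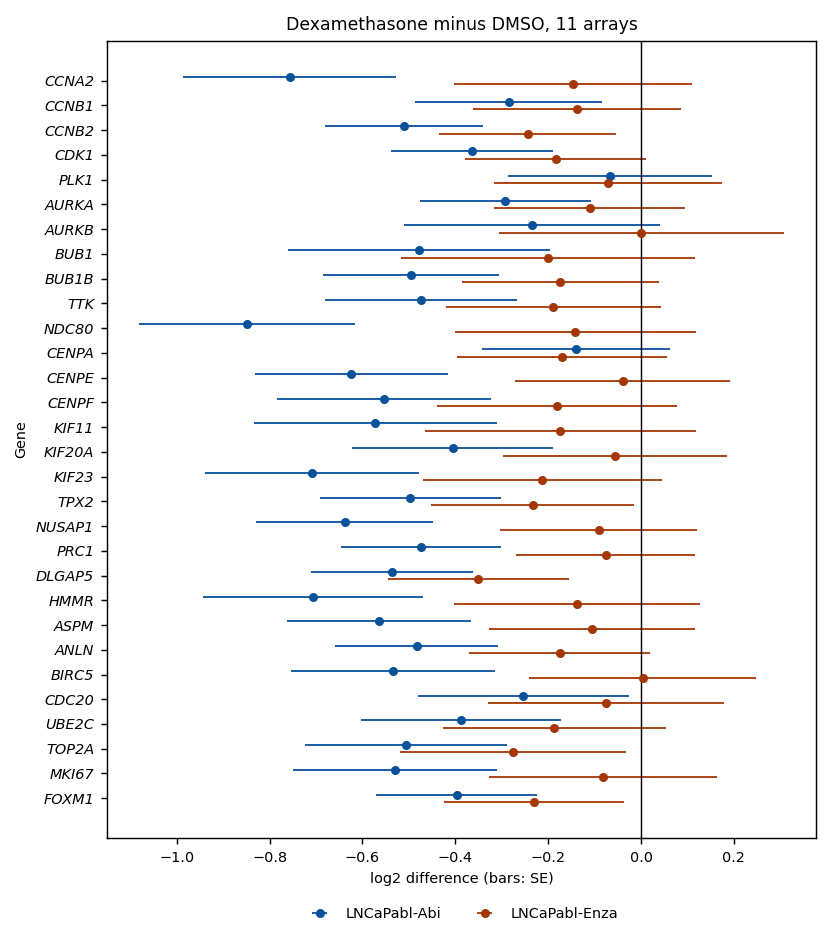
Log2 difference between dexamethasone and DMSO for each of the 30 members, in LNCaPabl-Abi (blue) and LNCaPabl-Enza (brown), from the fit without Enza_Ctrl replicate 2. Points are limma estimates and bars their SE. All 30 blue points are below 0, with a median of -0.50, and the brown points lie between -0.35 and 0.00.

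The difference between the responses (Enza minus Abi) was tested directly. It was positive for 30 of 30 members with 12 arrays (52.2% of all genes), with a median of 0.85, and for 28 of 30 without Enza_Ctrl replicate 2 (50.3% of all genes), with a median of 0.30. By limma 0 members were called with either set, as were 0 of all genes (0%), and 0 members had an unadjusted p under 0.05 (1.5% of all genes with 12 arrays and 3.2% without that array). The smallest p without that array belonged to NDC80 at 0.71 ± 0.35 (SE), CENPE at 0.58 ± 0.31, NUSAP1 at 0.55 ± 0.29 and CCNA2 at 0.61 ± 0.34 (adjusted p = 0.999 for each). MKI67 was at 0.45 ± 0.33, TOP2A at 0.23 ± 0.33, FOXM1 at 0.17 ± 0.26 and CCNB1 at 0.15 ± 0.30. PLK1, within 0.01 of 0, and CENPA, at -0.03, were the 2 members with a negative value. With 12 arrays NDC80 was at 1.42 ± 0.71, CCNB1 at 1.32 ± 1.04, CCNA2 at 1.01 ± 0.50, TOP2A at 0.98 ± 0.72, MKI67 at 0.96 ± 0.56, FOXM1 at 0.92 ± 0.69, NUSAP1 at 0.83 ± 0.39 and CENPE at 0.78 ± 0.37. A smaller response in LNCaPabl-Enza was thus not shown for any single member.

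With dexamethasone, all 30 members were higher in LNCaPabl-Enza than in LNCaPabl-Abi (48.6% of all genes had that direction). The median difference was 0.63, while the median of all genes was -0.01, and neither group of this comparison holds the array that stood apart. In 26 of 30 all Enza_Dex arrays lay above all Abi_Dex arrays, against 9.43% of all genes. CDK1, the kinase of mitotic entry, and KIF20A were called higher by limma without Enza_Ctrl replicate 2, and 0 members were called with 12 arrays. The background of calls in that direction was 0.752% of all genes without that array and 0.124% with it. At an unadjusted p under 0.05 there were 23 members without that array (11.5% of all genes) and 8 with it (4.14%).

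CDK1 was at 12.98, 12.98 and 13.38 in Enza_Dex and at 12.39, 12.32 and 12.49 in Abi_Dex. The groups did not overlap, and the difference was 0.71 ± 0.17 (SE), or 1.64-fold, with a limma adjusted p of 0.0464. KIF20A was at 10.89, 11.01 and 11.21 against 10.26, 10.23 and 9.99, also without overlap. Its difference was 0.87 ± 0.22 (SE), or 1.83-fold, with a limma adjusted p of 0.0474. With 12 arrays the SE came to 0.33 for CDK1 and 0.65 for KIF20A, and the adjusted p to 1.00 for both. The array that stood apart enters this comparison through the shared estimate of the spread.

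AURKA was at 12.87, 13.03 and 13.39 in Enza_Dex and at 12.55, 12.23 and 12.32 in Abi_Dex, a difference of 0.73 ± 0.18 (SE) with a limma adjusted p of 0.0536. DLGAP5 was at 0.69 ± 0.17 (adjusted p = 0.0536), HMMR at 0.93 ± 0.24 (0.0559) and BIRC5 at 0.86 ± 0.22 (0.0561). These 4 did not pass and had no overlap. NUSAP1 (0.71 ± 0.19), ANLN (0.64 ± 0.17) and NDC80 (0.84 ± 0.23) followed, with adjusted p from 0.0735 to 0.0834. CCNA2 was at 0.79 ± 0.23, CENPE at 0.71 ± 0.21, CCNB1 at 0.67 ± 0.20, KIF23 at 0.74 ± 0.23, CCNB2 at 0.55 ± 0.17, TTK at 0.63 ± 0.21, BUB1B at 0.57 ± 0.19, PLK1 at 0.61 ± 0.22, CDC20 at 0.63 ± 0.23, TOP2A at 0.61 ± 0.22, TPX2 at 0.52 ± 0.19 and PRC1 at 0.38 ± 0.17. All of these had no overlap and did not pass.

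The lower end held CENPF (0.45 ± 0.23), KIF11 (0.51 ± 0.26), CENPA (0.37 ± 0.20), ASPM (0.34 ± 0.20) and FOXM1 (0.32 ± 0.17), again without overlap. The 4 members whose groups overlapped were AURKB (0.68 ± 0.28), UBE2C (0.60 ± 0.21), BUB1 (0.48 ± 0.28) and MKI67. MKI67 was at 12.53, 12.18 and 12.85 in Enza_Dex and at 12.18, 11.93 and 12.26 in Abi_Dex, a difference of 0.40 ± 0.22 (SE). Which members passed varied with the estimate of the spread. The number of all genes called in this comparison varied too, 49 with 12 arrays and 403 without Enza_Ctrl replicate 2. The counts that follow have no such background beside them, so they describe the fit as well as the members. When the arrays of these 2 groups alone entered the fit, 5 members were called, NDC80, KIF20A, NUSAP1, DLGAP5 and HMMR (adjusted p from 0.0180 to 0.0442), and CDK1 was not among them. When each array was weighted by its agreement with its group, 13 were called, CDK1 and KIF20A included (adjusted p = 0.0136 and 0.0147). With the replicate number as a block and Enza_Ctrl replicate 2 left out, 5 were called, NDC80, KIF20A, NUSAP1, HMMR and BIRC5, and CDK1 was not (adjusted p = 0.0503).

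**Figure D3:**
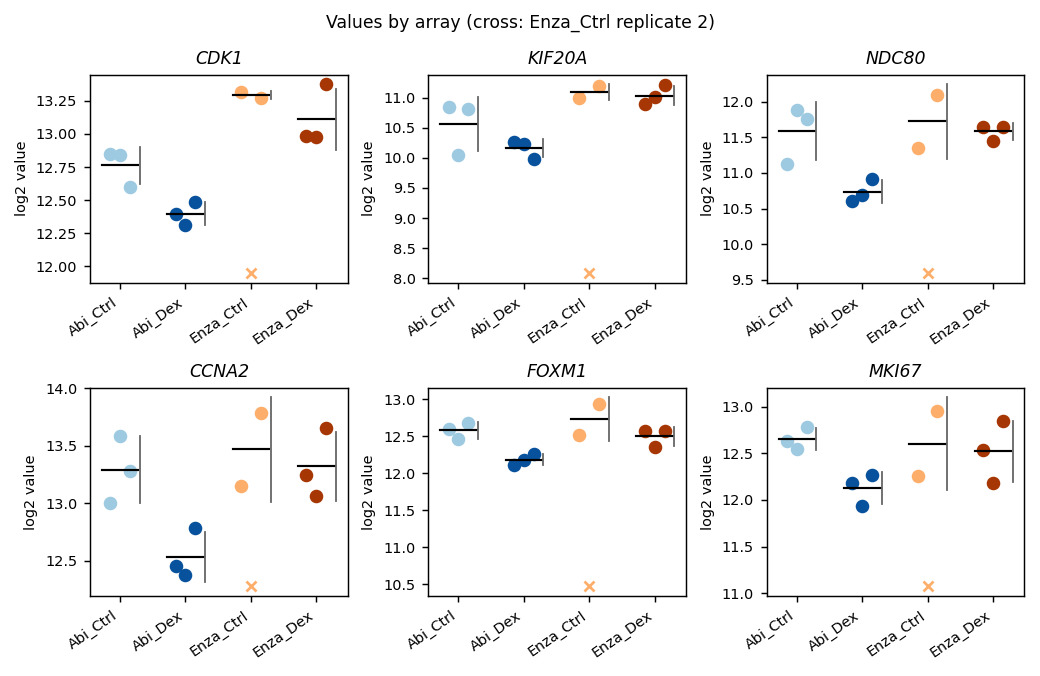
Deposited log2 value of 6 members on each array by group; the horizontal line is the group mean and the vertical line its SD, both without Enza_Ctrl replicate 2, which is drawn as a cross. Axes do not start at 0. CDK1 and KIF20A are called between Enza_Dex and Abi_Dex without that array, and in all 6 panels the Abi_Dex mean is the lowest of the 4 group means.

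With DMSO, the members' median difference between the lines was smaller in size than with dexamethasone, but its sign turned on Enza_Ctrl replicate 2. The change between the treatments is the difference between the responses given above, which was not called for any member. With 12 arrays 20 of 30 members were lower in LNCaPabl-Enza (52% of all genes), with a median of -0.23, and without Enza_Ctrl replicate 2 27 of 30 were higher (49.6% of all genes), with a median of 0.30. By limma 0 members were called with either set, against 0.266% of all genes in either direction with 12 arrays and 1.29% without that array. Of the members, 1 had an unadjusted p under 0.05 with 12 arrays (11.3% of all genes) and 6 without that array (11.1%). With 12 arrays 1 member, AURKA, had no overlap and was higher, against 5.95% of all genes. Without that array there were 9, against 11.5%, with 2 arrays left in Enza_Ctrl.

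CDK1 was at 12.85, 12.84 and 12.60 in Abi_Ctrl and at 13.32, 11.95 and 13.27 in Enza_Ctrl, a difference of 0.53 ± 0.20 (SE) without replicate 2 (limma adjusted p = 0.276) and 0.08 ± 0.33 with it. AURKA was at 12.82, 12.61 and 12.56 against 13.25, 13.52 and 13.16, with no overlap in either set, at 0.55 ± 0.21 without and 0.65 ± 0.22 with the array (adjusted p = 0.292 and 0.388). PLK1 was at 0.61 ± 0.25 without and 0.32 ± 0.30 with it. DLGAP5 was at 0.50 ± 0.19 and CCNB1 at 0.52 ± 0.22 without the array, and both were negative with it (-0.26 ± 0.49 and -0.65 ± 0.74). TOP2A (0.38 ± 0.24 and -0.37 ± 0.51) and FOXM1 (0.15 ± 0.19 and -0.60 ± 0.49) turned in the same way. MKI67 (-0.05 ± 0.25), PRC1 (-0.02 ± 0.19) and ASPM (-0.12 ± 0.22) were the 3 members lower in LNCaPabl-Enza without the array.

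**Figure D4:**
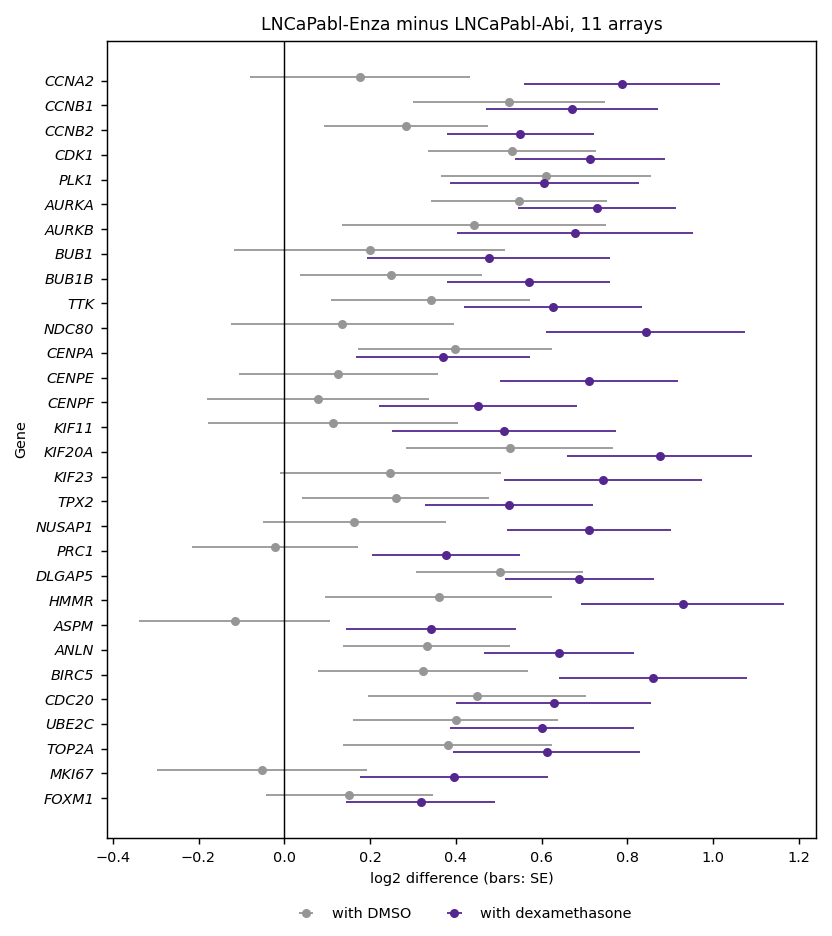
Log2 difference between LNCaPabl-Enza and LNCaPabl-Abi for each member with DMSO (grey) and with dexamethasone (purple), from the fit without Enza_Ctrl replicate 2; bars are SE. The median is 0.30 with DMSO and 0.63 with dexamethasone, where all 30 points are above 0.

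The comparisons share arrays pairwise, so their values for the members are not independent. Without Enza_Ctrl replicate 2 the members averaged 12.06 to 12.18 in Abi_Ctrl, 11.52 to 11.68 in Abi_Dex, 12.20 and 12.58 in Enza_Ctrl and 12.06 to 12.47 in Enza_Dex. The Abi_Dex arrays were the low ones. Enza_Dex overlapped both DMSO groups, and both Enza_Ctrl arrays lay above the Abi_Ctrl arrays, the nearest by 12.20 against 12.18. Replicate 3 had the highest members' mean in each of the 4 groups, in Abi_Dex by less than 0.01. In 20 of 30 members all 3 Abi_Dex arrays lay below each of the 8 other arrays, against 1.6% of all genes. The 10 members without that order were CCNB1, PLK1, AURKB, BUB1, CENPA, KIF11, KIF20A, CDC20, UBE2C and MKI67. In CENPF, CENPE and AURKA the gap to the next array was 0.00 to 0.01, so their place is within the spread.

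Replicates within a group also differed in the same direction for most members. Enza_Ctrl replicate 3 was above replicate 1 for 27 of 30 members, Enza_Dex replicate 3 was the highest of its group for 25, and Enza_Dex replicate 2 the lowest for 24. In LNCaPabl-Abi no array was the highest, or the lowest, of its group for more than 16. Over the 11 arrays the median Pearson r of the 435 pairs of members was 0.77, and all 435 were above 0, while the median r of a member with the genes outside the list was -0.02. For deviations from the group means the median r of the pairs was 0.46, from -0.74 to 0.97. These points share arrays and groups and are given as a description. Members are therefore not 30 separate observations of a treatment.

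Members differed in how closely they followed the others. ANLN had the highest r with the mean of the other members over the 11 arrays (0.957), then TOP2A (0.956), BUB1B (0.946), TTK (0.944) and TPX2 (0.943). CDC20 (0.614), CENPA (0.646), PLK1 (0.663) and BUB1 (0.667) were lowest. Outside the list, the 10 genes most like the members' mean over these 11 arrays were KIF14, AGPAT5, NUF2, CDCA2, PKP4, CEP78, SPAG5, STAG1, LBR and MED1, with r from 0.950 to 0.933. KIF14, NUF2 and SPAG5 are spindle and kinetochore genes of the further mitotic list, and STAG1 is a cohesin subunit.

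Other genes of the pathway were counted in 4 lists. Of 78 measured further mitotic genes, 73 were lower in LNCaPabl-Abi with dexamethasone, with a median of -0.43, and 33 had no overlap, against 49.6% and 6.01% of all genes. By limma 0 were called. The 4 with the smallest p without Enza_Ctrl replicate 2 were SGO1, the protector of centromeric cohesion, at -0.80 ± 0.22 (SE), MASTL, a kinase of mitotic entry, at -0.85 ± 0.23, KIF4A, a chromosome-bound motor, at -0.65 ± 0.18, and GAS2L3 at -0.59 ± 0.17 (adjusted p from 0.376 to 0.465). With dexamethasone, all 78 were higher in LNCaPabl-Enza than in LNCaPabl-Abi (48.6% of all genes), with a median of 0.55. There 8 were called without that array, against 0.752% of all genes called higher, and 0 with 12 arrays, against 0.124%. The 8 were KIF14, CDC25A, CDC25C, MASTL, CKS1B, SPAG5, OIP5 and GAS2L3, at 0.69 to 0.97 (limma adjusted p from 0.0150 to 0.0481).

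The other lists were lower in LNCaPabl-Abi by less, where 49.6% of all genes were lower. Of 17 cell cycle transcription factors and MuvB subunits, 14 were lower with a median of -0.26, and 6 (35.3% of the list) had no overlap. Those with the smallest p were LIN54 (-0.67 ± 0.20) and LIN9 (-0.52 ± 0.17), subunits of MuvB, then E2F8 (-0.84 ± 0.28) and RBL1 (-0.65 ± 0.25). Of 21 subunits and regulators of the anaphase-promoting complex and cohesin, 17 were lower with a median of -0.24. Of these, 6 (28.6% of the list) had no overlap. The list was led by CDC27 (-0.61 ± 0.19), WAPL (-0.55 ± 0.18), SMC3 (-0.56 ± 0.19) and SMC1A (-0.44 ± 0.18). Of 39 DNA replication genes, 36 were lower with a median of -0.35, and 5 of them (12.8% of the list) had no overlap, against 6.01% of all genes. ORC6 (-0.88 ± 0.26), MCM4 (-0.52 ± 0.17), GINS1 (-0.55 ± 0.20) and RRM2 (-0.47 ± 0.19) had the smallest p among them. By limma 0 genes of these 3 lists were called in LNCaPabl-Abi, and at an unadjusted p under 0.05 there were 4, 5 and 7 without Enza_Ctrl replicate 2 (7.09% of all genes) and 1 in each list with 12 arrays (1.36% of all genes).

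In LNCaPabl-Enza the medians of the 4 lists were 0.29, 0.26, 0.37 and 0.41 with 12 arrays and ran from -0.05 to -0.12 without Enza_Ctrl replicate 2. With either set 0 genes were called and 0 had an unadjusted p under 0.05. Without that array the smallest p among the mitotic genes belonged to ESPL1 (-0.42 ± 0.22), GAS2L3 (-0.31 ± 0.19), SKA3 (-0.34 ± 0.21) and KIF18B (-0.39 ± 0.26). Among the factors it was TFDP1, TFDP2, E2F2 and E2F7 (-0.21 to -0.23). Among the complex subunits and regulators it was WAPL (-0.38 ± 0.20), CDC27 (-0.40 ± 0.21), ANAPC2 (-0.27 ± 0.19) and CDC26 (0.28 ± 0.26). Among the replication genes it was POLE (-0.48 ± 0.26), ORC1 (-0.28 ± 0.22), RRM2 (-0.25 ± 0.22) and POLA1 (-0.28 ± 0.26). Between the treated lines RRM2, a ribonucleotide reductase subunit, was the only replication gene of 39 called, against 0.752% of all genes called higher. It was at 0.90 ± 0.19 without that array (limma adjusted p = 0.0220).

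**Figure D5:**
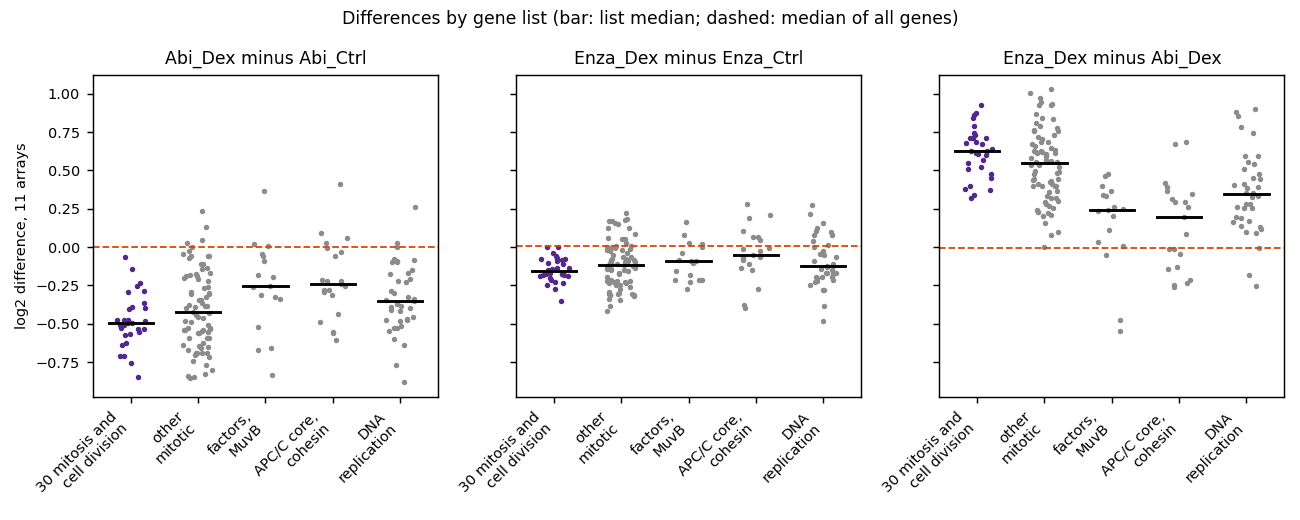
Log2 differences, without Enza_Ctrl replicate 2, of each gene (points) in the 30 members and in 4 other lists, for dexamethasone in each line and for the treated lines. Black bars are list medians and the dashed line is the median of all genes. The members' medians are -0.50, -0.16 and 0.63, and the sideways scatter of points has no meaning.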

How the data were processed

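The files deposited by the authors hold log2 values for each transcript cluster on each array. Expression Console, RMA and limma, without versions, are listed per the submitters' processing notes. The deposited values span 1.66 to 18.6, wider than RMA usually gives, so folds hold on the deposited scale. The annotation build was not given in the sources used here. Of 24351 rows, 17709 had 1 gene symbol, all matched to RefSeq by Entrez identifier. The brightest row per symbol left 17687 genes. Array number limits the precision.

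Groups came from the titles. limma 3.58.1 in R 4.3.3 (lmFit, eBayes) fitted 4 group means without a block or filter, and p-values were adjusted over all genes by Benjamini-Hochberg. Groups overlap unless every array of one lies above every array of the other. The script was tested on simulated data.

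Members and lists were chosen with earlier results of these data known. The rule for members to describe in each comparison took the 4 with the smallest p without Enza_Ctrl replicate 2, MKI67, CCNB1, FOXM1, TOP2A and called members. Outside the members, genes were named by smallest p in each list (4 per comparison with dexamethasone), by likeness to the members' mean (10), or by a call. The 100-base promoter window was set after looking at the matches. Alternatives left out each array in turn, added the replicate number as a block, normalized by quantiles anew, dropped the dimmest 25% of genes, fitted only the groups compared, weighted arrays, or averaged rows of a symbol. Symbols in the lists without a named row are not analysed here.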

Additional observations from a re-analysis of the deposited data

How the results depend on the processing

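The direction of the members in LNCaPabl-Enza and between the untreated lines turned on 1 array. Leaving out 1 array at a time gave a median with dexamethasone in LNCaPabl-Enza of -0.16 to 0.70, and there DLGAP5 ran from -0.35 to 0.86, FOXM1 from -0.23 to 1.00, TOP2A from -0.28 to 0.99, MKI67 from -0.082 to 0.86 and CCNB1 from -0.14 to 1.69. With DMSO the median ran from -0.55 to 0.30, DLGAP5 from -0.71 to 0.50, CCNB1 from -1.31 to 0.52, FOXM1 from -1.08 to 0.15, TOP2A from -0.89 to 0.38 and CDK1 from -0.15 to 0.53. PLK1 in LNCaPabl-Abi ran from -0.30 to 0.13, the median difference between the responses from 0.30 to 1.23, and the members called between the treated lines from 0 to 2. The negative values in LNCaPabl-Enza, the positive ones with DMSO, the 2 calls and the 0.30 came without Enza_Ctrl replicate 2, and CDK1 was negative without Enza_Ctrl replicate 1 or 3.

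With array weights, in the order above, LNCaPabl-Enza gave -0.12, -0.32, -0.18, -0.23, -0.032 and -0.087, DMSO gave 0.27, 0.51, 0.43, 0.074 and 0.26 without CDK1, the responses 0.38, and 13 members were called. The counts of called members in this paragraph have no share of all genes beside them. 3 alternatives chosen after seeing the data also left out Enza_Ctrl replicate 2. With quantiles anew they were -0.19, -0.38, -0.25, -0.31, -0.11 and -0.20, then 0.34, 0.56, 0.60, 0.21 and 0.45, with MKI67 at 0.0033, then 0.26, and 3 members. Without dim genes they were -0.16, -0.35, -0.23, -0.28, -0.082 and -0.14, then 0.30, 0.50, 0.52, 0.15 and 0.38, then 0.30, and 4 members. With the replicate block they were -0.11, -0.36, -0.19 and -0.15 for the median, DLGAP5, FOXM1 and TOP2A, -0.059 for CCNB1, then 0.24, 0.51, 0.44, 0.11 and 0.25, then 0.38, and 5 members. This block ended the call of CDK1. On 12 arrays quantiles anew gave 0.084 for the LNCaPabl-Enza median, 0.10 for the DMSO median and 0.10 for DLGAP5, and fitting only the groups compared called 5 members between the treated lines. The replicate block on 12 arrays called 0 members in each of the 5 comparisons. Deviations from the group means correlated at -0.04 to 0.30 between same-numbered arrays of different groups. They were above 0.1 in 5 of 18 such pairs, against 0 of 36 pairs with unlike numbers. Without Enza_Ctrl replicate 2 it was 8 of 15 (median 0.13) against 1 of 30 (median -0.07). The deviations of a group sum to 0 for each gene, so higher values in same-numbered pairs go with lower ones in unlike pairs. The sets of pairs are therefore not independent. No label says that a number marks a shared batch, so the main fit was unpaired. A batch shared by number was not tested and may remain in that fit. The causes were not tested. In LNCaPabl-Abi and between the treated lines the members' median kept its sign in each alternative. The brighter genes shifted by 0.22 in LNCaPabl-Enza and -0.22 with DMSO on 12 arrays, and 3 arrays a group limit what can be called.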

Other observations

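The genes most opposite to the members' mean over the 11 arrays without Enza_Ctrl replicate 2, chosen after their values were seen, included CAPN2, a calcium-dependent protease, with a Pearson r of -0.959, INPP5J, an inositol phosphatase, with -0.954, and CRYAB, a small heat shock protein, with -0.910. With dexamethasone CAPN2 was at 1.26 ± 0.34 (SE) in LNCaPabl-Abi (adjusted p = 0.381) and 0.55 in LNCaPabl-Enza. It was at -1.54 (adjusted p = 0.0272) between the treated lines. CRYAB was at 1.56 ± 0.34 (adjusted p = 0.154) and 0.21, and at -1.70 (adjusted p = 0.0137) between the treated lines. Others ranked above CRYAB. Between the treated lines CFAP69 (r of -0.937) was at -1.33 (adjusted p = 0.000784) and SLC37A1 (-0.911) at -0.99 (0.00499). INPP5J at -0.73 (0.0583) and SCARB2 (r of -0.933) at -0.64 (0.0655) did not pass. These are limma log2 differences without Enza_Ctrl replicate 2, and the correlations are across 11 arrays that share groups. Genes picked for opposing the members' mean on these arrays tend to show opposite differences on them.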
